A study of Mus musculus with 12 samples.

Results

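Glutathione transferases (GSTs) and UDP-glucuronosyltransferases (UGTs) were followed in mouse liver RNA. Members were the rows of the count table whose symbol is GSTA, GSTK, GSTM, GSTO, GSTP, GSTT or GSTZ with a number or MGST1 to MGST3, and those that begin with UGT1A, UGT2A, UGT2B or UGT3A. Rows marked as pseudogene or opposite-strand transcripts were left out. The rule gave 47 of 56441 rows, 26 GST and 21 UGT genes. Of these, 22 GST and 16 UGT genes passed the filter on low counts and were tested among 15228 genes.

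GSTs join the tripeptide glutathione to electrophiles, and many also reduce peroxides. The soluble classes alpha, mu, pi, theta, zeta and omega work in the cytosol, kappa in mitochondria, and the microsomal MGSTs in membranes. UGTs sit in the endoplasmic reticulum and move glucuronic acid from UDP-glucuronate onto bilirubin, steroids and drugs, which the cell then exports. The liver is a main site of both, and factors such as NRF2, CAR, PXR and the aryl hydrocarbon receptor are known to act on many of their promoters.

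The study raised fumarate hydratase (FH), the mitochondrial and cytosolic enzyme that adds water to fumarate, in 2 models of a fatty liver, with 3 libraries in each of 4 groups. C57BL/6 mice had received AAV8-FH, or AAV8-vector as control, and were fasted for 24 h. The other groups were leptin-deficient, obese ob/ob mice that ate a high-fat diet (HFD) and were given AAV8-FH or AAV8-vector. All were injected in the tail vein at 6 to 8 weeks of age and sampled 1 month later, so every group carries AAV8. The virus is described as specific to the liver, but its promoter, the species of its FH sequence and any pooling of mice were not given in the sources used here. Fed C57BL/6 mice and lean mice on the HFD were not analysed here. The labels give liver as the tissue and hepatocyte as the cell type. All 6 hepatocyte markers had at least 7683 counts in every library, and every marker of endothelium, Kupffer cells, stellate cells and bile ducts was counted too. In bulk samples, fewer cells of a type and less RNA per cell cannot be told apart. The labels do not say whether each library is a separate mouse, and p-values therefore describe only how much the libraries vary.

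Several features of the libraries moved with the groups. Totals ran from 19107050 to 25873379 counts in the 6 FH libraries and from 12231828 to 14884323 in the 6 vector libraries. Levels are given as CPM, counts scaled to a common library size, with totals adjusted by TMM, a method that sets the bulk of genes near no change. Its factors were 0.722 to 0.907 in FH and 1.12 to 1.37 in vector libraries. On plain library totals the median of all genes was -0.71 in the fasted and -0.63 in the ob/ob FH comparison, in log2 units, against -0.04 and -0.01 with TMM, so changes below are relative to the TMM scaling. Fh1, the mouse FH gene, had 719.9 to 925 CPM in fasted FH and 238 to 408 CPM in fasted vector livers. In ob/ob livers it had 616 to 801 CPM with FH and 106 to 141 CPM with the vector. Xist had 2242 to 4992 counts in the 3 ob/ob FH libraries, which had 0 counts over 4 Y-linked genes, while the other 9 libraries held 1 to 24 counts of Xist and 2304 to 5181 Y-linked counts. In the ob/ob comparison FH and these sex markers cannot be told apart. Of 6 hepatocyte markers 5 rose with FH in each model. Their sum was 150210 to 162879 CPM in fasted FH and 47314 to 69091 CPM in fasted vector livers. In ob/ob livers it was 130313 to 159092 CPM with FH and 43792 to 54848 CPM with the vector. Alb alone made up most of this sum in every library, on either scaling. It had 120056 CPM in fasted FH replicate 1 and 39767 CPM in fasted vector replicate 1. Of 6 endothelial markers 6 fell with FH in fasted livers (summed 94.9 to 108 CPM in FH and 230.3 to 293 CPM in vector livers), and in ob/ob livers 3 rose and 1 fell. Of 5 Kupffer markers 4 fell in fasted livers (133 to 153 CPM in FH and 224 to 400.1 CPM in vector livers) and 4 rose in ob/ob livers (376 to 515 CPM in FH and 153 to 273 CPM in vector livers). On library totals the hepatocyte sums were 108419 to 119971 CPM in fasted FH and 58251 to 77630 CPM in fasted vector livers, and 115878 to 131161 CPM in ob/ob FH and 60079 to 73213 CPM in ob/ob vector livers. On that scaling the ob/ob endothelial sums were lower with FH (154 to 215 CPM, and 219.99 to 269.7 CPM with the vector) and the Kupffer sums overlapped. The part of these markers in the results was not tested.

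Per kilobase of annotated exon (GENCODE M21 lengths), Mgst1, the microsomal transferase of liver, was the most abundant member, with a mean of 2724 CPM per kb over the 12 libraries. The cytosolic Gstm1 had 1199, Gstp1 689.6, Gsta3 402 and Gstz1 207 CPM per kb. Below Mgst1 the order depended on the group: Gstp1 was above Gstm1 in fasted FH (1169 and 881 CPM per kb) and fasted vector livers (787 and 286), and in ob/ob FH livers Gsta3 (653) and Gstm3 (426) were above Gstp1 (330.0). Among UGTs, Ugt2b5 had 559, Ugt2b36 450.4, Ugt2b1 159.5, Ugt3a2 156, Ugt2a3 129.6 and Ugt2b34 104 CPM per kb over the 12 libraries. UGT1A members were lower per kb, with Ugt1a9 at 28.5, Ugt1a1 at 17.7, Ugt1a5 at 17.6 and Ugt1a6b at 13.0 CPM per kb. In ob/ob FH livers Ugt1a5 was the highest of these, at 55.1 CPM per kb. The UGT1A lengths include exons that the members share. How reads there were counted was not given, so the UGT1A levels per kb, and their place below other UGTs, are uncertain. Gstt4, Ugt2a1 and Ugt2a2 had 0 counts in every library, which allows at most 0.213 CPM in any of them (3 counts per library). That limit covers counting error only, while the 95% intervals of fold changes below come from the SE of the fit and include the spread between libraries. They use a normal approximation and are therefore narrower than intervals from the test itself would be. A further 6 members were counted but too low to test: Gsta5, Gsto2, Mgst2, Ugt1a2, Ugt1a8 and Ugt1a10.

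In fasted livers, 13 GST messages rose with FH on the TMM scaling, among them Gstm1, Gsta2, Gsta4 and Gstt3. Of 22 tested GST genes 13 rose, 0 fell and 9 were not called (edgeR quasi-likelihood test, adjusted p under 0.05), where 27.4% of all tested genes were called higher and 27.6% lower. The median log2 fold change of the 22 was 0.84. On library totals 7 rose (Gsta2, Gsta4, Gstk1, Gstm1, Gsto1, Gstt1 and Gstt3) and 1 fell (Gstz1), with a median of 0.17, where 7.16% of all tested genes were called higher and 55.7% lower on that scaling. Without 1 library at a time 9 to 18 of the 22 rose, with 18 rises and 0 falls without ob/ob vector replicate 2. Calls over all genes in this comparison were also most numerous with that omission. Mgst2, too low to test with all 12 libraries, passed the filter and was called lower in that and in several of the other omissions.

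With FH, 14 GST messages rose in ob/ob livers on the TMM scaling, among them Gstm1, Gstm2, Gstm3 and Gstt3. Of the 22 genes 14 rose, 0 fell and 8 were not called, where 25.8% of all tested genes were called higher and 27.9% lower. The median was 0.90. On library totals 6 rose (Gstk1, Gstm1, Gstm2, Gstm3, Gstm4 and Gstt3) and 3 fell (Gstp1, Gstp2 and Gstt2), with a median of 0.28, where 6.83% of all tested genes were called higher and 53.3% lower. Without ob/ob vector replicate 2, 13 rose and 1 fell. The 2 FH comparisons share no library. In both of them 10 GST genes rose, which is 10 of the 13 fasted and 10 of the 14 ob/ob rises, and 18.9% of all tested genes were called higher in both. On library totals 3 GST genes rose in both models (Gstk1, Gstm1 and Gstt3), and 3.74% of all tested genes did.

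**Figure D1:**
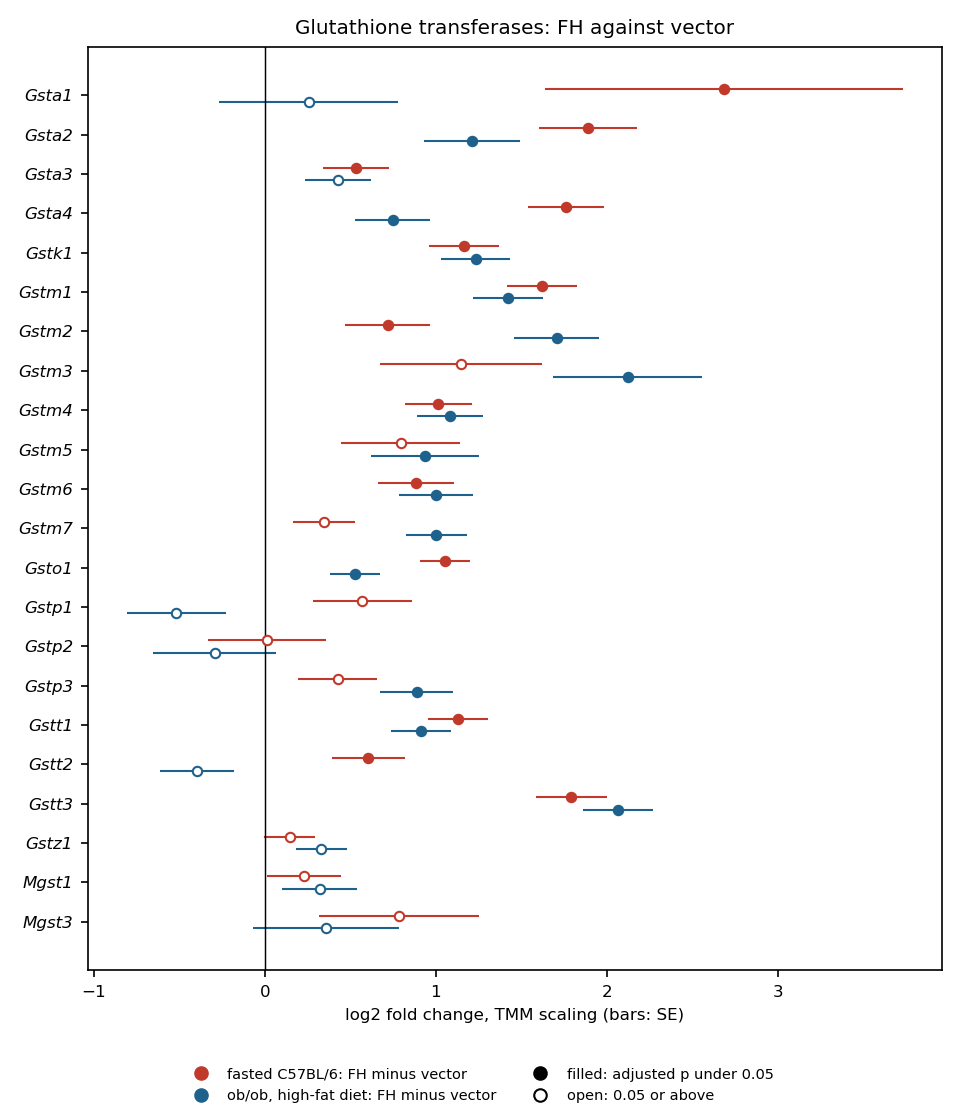
Log2 fold change (FH minus vector, TMM scaling) of the 22 tested glutathione transferases in fasted C57BL/6 livers (red) and ob/ob livers (blue), with SE as bars and filled points for adjusted p under 0.05. The filled points all lie right of 0, with 13 in fasted and 14 in ob/ob livers; on library totals 7 and 6 were called above 0 and 1 and 3 below it.

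The mu class is a cluster of 7 genes on chromosome 3, and each of the 7 rose in at least 1 model with TMM scaling, against 4 (Gstm1 to Gstm4) on library totals. These enzymes conjugate a wide range of aromatic and epoxide substrates. Gstm1 stood at 1083, 1589 and 1222 CPM in fasted FH livers and at 465, 429 and 372 CPM in fasted vector livers. The groups did not overlap, and the FH mean was 3.08-fold higher (log2 fold change 1.62, SE 0.20, adjusted p = 2.83e-05 by edgeR). Gstm1 stood at 3975, 3879.5 and 3822 CPM in ob/ob FH and 1411, 1113 and 1839.9 CPM in ob/ob vector livers (log2 fold change 1.42, SE 0.20, adjusted p = 7.37e-05 by edgeR). The 3 FH values lay within a narrow range far above the vector values, and the rise was 2.68-fold. Gstm1 rose on library totals as well, by 0.95 in fasted and 0.80 in ob/ob livers.

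Gstm2 and Gstm3, neighbours of Gstm1, rose with FH in ob/ob livers. Gstm2 was at 299, 284 and 302 CPM with FH and 83.5, 64.1 and 124 CPM with the vector there (log2 fold change 1.71, SE 0.25, adjusted p = 8.35e-05 by edgeR). In fasted livers it was at 40.8, 47.4 and 67.5 CPM with FH and 41.4, 27.7 and 25.6 CPM with the vector. The groups overlapped in fasted livers. The fasted rise (log2 fold change 0.72, SE 0.25, adjusted p = 0.0248 by edgeR) lost its call without any of 5 libraries, fasted FH replicate 3, fasted vector replicates 2 and 3 and ob/ob FH replicates 1 and 3, with 0.49 to 0.65 and adjusted p of 0.0506 to 0.132. The difference of the effects was not called (0.99, adjusted p = 0.0944).

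Gstm3 was scarce in fasted livers and abundant in ob/ob livers. It had 438, 511 and 726 CPM in ob/ob FH livers and 126, 50.2 and 209 CPM in ob/ob vector livers (log2 fold change 2.12, SE 0.44, adjusted p = 0.00112 by edgeR). Every FH value was above every vector value, a 4.35-fold rise. In fasted livers it had 5.79, 17.2 and 10.5 CPM with FH and 6.31, 4.07 and 4.85 CPM with the vector, which overlapped, and the difference missed the threshold (1.15, adjusted p = 0.0543).

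Of the remaining mu members, Gstm4 (log2 fold change 1.01 fasted, 1.08 ob/ob) and Gstm6 (0.88 and 1.00) rose in both models. Gstm7 rose in ob/ob livers (1.00) and had 0.35, adjusted p = 0.115 in fasted livers. Gstm5 rose in ob/ob livers (0.94, adjusted p = 0.0222) and had 0.79, adjusted p = 0.0663 in fasted livers. The Gstm5 call was lost without ob/ob FH replicate 1 or 3 or ob/ob vector replicate 2 (0.71 to 0.89, adjusted p 0.0552 to 0.0670). Summed over the 7 mu genes, the share of all counts was 0.0951% to 0.133% in fasted FH and 0.0600% to 0.0716% in fasted vector libraries, and 0.422% to 0.470% in ob/ob FH and 0.191% to 0.312% in ob/ob vector libraries.

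Alpha-class transferases conjugate lipid peroxidation products and reduce lipid hydroperoxides. Gsta2 was at 46.5, 66.9 and 74.5 CPM in fasted FH and 24.1, 14.2 and 12.6 CPM in fasted vector livers (log2 fold change 1.89, SE 0.29, adjusted p = 0.000114 by edgeR). All FH values exceeded all vector values, a 3.70-fold rise. Among ob/ob livers, Gsta2 was at 68.6, 43.8 and 58.5 CPM with FH and 27.6, 30.2 and 16.1 CPM with the vector, again without overlap (log2 fold change 1.21, SE 0.28, adjusted p = 0.00247 by edgeR).

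Gsta4, which acts on the aldehyde 4-hydroxynonenal, had 65.1, 104 and 99.0 CPM in fasted FH and 30.8, 26.1 and 22.1 CPM in fasted vector livers. The groups lay far apart, and the rise was 3.39-fold (log2 fold change 1.76, SE 0.22, adjusted p = 3.09e-05 by edgeR). The ob/ob FH livers had 135, 79.2 and 106 CPM of Gsta4 and the ob/ob vector livers 70.1, 69.2 and 51.0 CPM (log2 fold change 0.75, SE 0.22, adjusted p = 0.0103 by edgeR). That smaller rise lost its call if ob/ob FH replicate 1 was left out (0.53, adjusted p = 0.0685), and the 2 effects differed by -1.01, adjusted p = 0.0584.

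Gsta3, the alpha member with the most CPM per kb, was at 1026, 1362 and 1229 CPM in fasted FH and 1003, 615 and 882 CPM in fasted vector livers. The groups did not overlap but nearly met, and the call (log2 fold change 0.53, SE 0.19, adjusted p = 0.032 by edgeR) was lost without any of 5 libraries, fasted FH replicates 2 and 3, fasted vector replicate 2 and ob/ob FH replicates 1 and 3 (0.37 to 0.52, adjusted p 0.0541 to 0.111). Gsta3 was at 3294, 2683 and 2537 CPM in ob/ob FH and 2144, 1984 and 2197 CPM in ob/ob vector livers (0.43, adjusted p = 0.0764). On library totals Gsta3 was at -0.14 and -0.20.

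Gsta1 is a near copy of Gsta2: their coding sequences are identical at 653 of 669 aligned bases (97.6%), and 49.8% of the 50-base windows of Gsta1 stand in no other member. The 60 coding bases where the pair differs most, bases 449 to 508 of each, are shown with the 5 differing bases in capitals, because reads that cover no such difference can be placed on either gene (GENCODE M21, both on chromosome 9).
Gsta1: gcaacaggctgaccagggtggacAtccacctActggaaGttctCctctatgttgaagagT
Gsta2: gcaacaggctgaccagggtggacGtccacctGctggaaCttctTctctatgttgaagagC
Gsta1 had 7, 27 and 22 counts in the fasted FH libraries and 6, 0 and 2 counts in the fasted vector libraries. At these counts its call (log2 fold change 2.68, SE 1.05, adjusted p = 0.0431 by edgeR) was lost without any of 6 libraries, fasted FH replicates 2 and 3, fasted vector replicates 2 and 3 and ob/ob FH replicates 1 and 3 (2.07 to 2.68, adjusted p 0.0538 to 0.135), and it stood at 4.01 without fasted vector replicate 1. Among ob/ob livers, Gsta1 had 11.4, 14.9 and 14.8 CPM with FH and 11.5, 2.57 and 20.3 CPM with the vector, with no call (0.26, adjusted p = 0.7). Summed per library, Gsta1 and Gsta2 rose in fasted livers (log2 fold change 1.90, SE 0.24, adjusted p = 2.64e-05 by edgeR) and in ob/ob livers (log2 fold change 0.97, SE 0.23, adjusted p = 0.00283 by edgeR). Scaled to library totals it was at 1.23 in fasted livers, with a call, and at 0.34 (adjusted p = 0.19) in ob/ob livers.

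Theta-class enzymes act on small halogenated substrates, and Gstt3 rose with FH in both models. It was at 53.5, 47.6 and 56.7 CPM in fasted FH and 15.1, 14.7 and 15.8 CPM in fasted vector livers (log2 fold change 1.79, SE 0.21, adjusted p = 1.53e-05 by edgeR). The ob/ob FH livers had 117, 68.2 and 67.9 CPM of Gstt3 and the ob/ob vector livers 22.7, 15.7 and 22.1 CPM (log2 fold change 2.06, SE 0.21, adjusted p = 5e-06 by edgeR). In each model the lowest FH value was above the highest vector value. The rises were 3.46-fold and 4.18-fold, and both held on library totals (1.12 and 1.43). The neighbouring Gstt1 rose in both models (1.13 and 0.91). Gstt2, next to them, rose in fasted livers (0.60, adjusted p = 0.0277), where 6 single libraries (fasted FH replicates 1 and 3, fasted vector replicates 2 and 3 and ob/ob FH replicates 1 and 3) each decided the call (0.50 to 0.63, adjusted p 0.0511 to 0.101), and stood at -0.40, adjusted p = 0.134 in ob/ob livers. The difference of its effects missed the threshold (-1.0, adjusted p = 0.0569), and without ob/ob vector replicate 2 its ob/ob value was -0.60 (adjusted p = 0.00977). Its values on library totals were -0.06 in fasted livers and -1.02, with a call, in ob/ob livers.

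Gstk1, the mitochondrial and peroxisomal kappa enzyme, had 235, 197 and 204 CPM in ob/ob FH and 120.0, 61.6 and 89.0 CPM in ob/ob vector livers. Its groups did not overlap (log2 fold change 1.23, SE 0.20, adjusted p = 0.000206 by edgeR). In fasted livers it had 147, 134 and 168 CPM with FH and 76.8, 64.0 and 59.3 CPM with the vector (log2 fold change 1.16, SE 0.20, adjusted p = 0.000312 by edgeR). Gsto1, the omega-class thioltransferase, rose in both models (1.05 and 0.53). The ob/ob call of Gsto1 was lost when ob/ob FH replicate 1 was left out (0.41, adjusted p = 0.0513). Gsto1 was at 0.39 with a call in fasted and -0.10 with no call in ob/ob livers on library totals.

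Mgst1 and Gstz1, both abundant, were not called with TMM scaling. Mgst1 was at 6359.6, 5429 and 6744 CPM in fasted FH and 6599, 4264 and 4934 CPM in fasted vector livers (log2 fold change 0.23, SE 0.22, adjusted p = 0.386 by edgeR). Mgst1 was at 6781, 5416 and 5277 CPM in ob/ob FH and 5524, 3626 and 4838 CPM in ob/ob vector livers (0.32, adjusted p = 0.23). The groups overlapped in both models. The 95% intervals of the log2 fold change were -0.20 to 0.66 and -0.11 to 0.75. Gstz1, which also isomerises maleylacetoacetate in tyrosine breakdown, was at 1138, 1038 and 1159.6 CPM in fasted FH and 1068, 924 and 1024 CPM in fasted vector livers (0.15, adjusted p = 0.426). Among ob/ob livers, Gstz1 was at 1328, 1073 and 1098 CPM with FH and 1054, 823 and 906 CPM with the vector (0.33, adjusted p = 0.077). On library totals Mgst1 was at -0.44 and -0.31 and Gstz1 at -0.53 and -0.30, the fasted Gstz1 value being called lower. Gstz1 and Pomt2 overlap on opposite strands, as do Gsta3, Gsto1 and Gstm5 with other genes. Whether the counting used strand was not given in the sources used here, so reads of such pairs cannot be told apart. The sum of all 26 GST rows was 12221 to 13210.4 CPM in fasted FH and 8099.5 to 11005 CPM in fasted vector livers, and 15687 to 18227 CPM in ob/ob FH and 9482 to 11648 CPM in ob/ob vector livers, without overlap on the TMM scaling. As a plain share of all counts it was 0.905% to 0.961% in fasted FH and 0.910% to 1.26% in fasted vector libraries, and 1.39% to 1.50% in ob/ob FH and 1.27% to 1.60% in ob/ob vector libraries. These shares overlapped in both models.

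Among pi-class transferases Gstp1 and Gstp2 were not called with TMM scaling. Gstp1, a detoxifying enzyme that is known to be higher in male than in female mouse liver, was at 1472, 2484 and 1473 CPM in fasted FH and 1133, 1283 and 1241 CPM in fasted vector livers (0.57, adjusted p = 0.11). The ob/ob FH livers had 425, 529 and 579 CPM of Gstp1 and the ob/ob vector livers 495, 1140.0 and 558 CPM (-0.52, adjusted p = 0.148). The vector value that stood out was that of ob/ob vector replicate 2, without which the ob/ob effect was -0.03 (adjusted p = 0.922). With 1 library left out the fasted effect ran from 0.28 to 0.71 and the ob/ob effect from -0.72 to -0.03. On library totals Gstp1 was at -0.10 in fasted livers, and at -1.13 in ob/ob livers with a call. Gstp2 is 98.1% identical to Gstp1 over 630 coding bases and took 0.230% to 0.388% of the pair's counts in fasted FH and 0.418% to 0.492% in fasted vector libraries. For ob/ob livers this share was 0.441% to 0.713% with FH and 0.225% to 0.753% with the vector, which overlapped. Gstp3 rose in ob/ob livers (0.89, adjusted p = 0.00331) and stood at 0.43, adjusted p = 0.132 in fasted livers.

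Ob/ob vector replicate 2 stood apart from replicates 1 and 3 of its group in sex-biased liver genes. Summed over 5 male-biased genes (Hsd3b5, Cyp2d9, Cyp4a12a, Elovl3, Mup20) it had 7314 CPM, against 3332 and 1438 CPM. Over 6 female-biased genes (Cyp2b9, Cyp3a41a, Cyp3a44, Sult2a1, Sult3a1, Cyp2b13) it had 0.893 CPM, against 234 and 384 CPM. Nearly all of this sum in ob/ob vector libraries came from Cyp2b9 (193, 0.788 and 333 CPM) and Cyp2b13 (40.9, 0 and 50.5 CPM). Cyp3a41a, Cyp3a44, Sult2a1 and Sult3a1 had at most 0.418 CPM each in that group and did not set the replicate apart. The female-biased sum was 880.5 to 1224 CPM in the ob/ob FH libraries, 4.10 to 8.62 CPM in fasted FH and 0.179 to 0.797 CPM in fasted vector libraries. The replicate had the lowest Gstm3, Gsta1 and Mgst3 and the highest Gstp1 and Ugt2b38 of its group. It was also the lowest in most other tested GST genes, among them Gstm1, Gstk1, Mgst1 and Gstp2. In Gsta2, Gstm6 and Gstm7 it was the highest. The part of sex markers in these members was not tested.

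**Figure D2:**
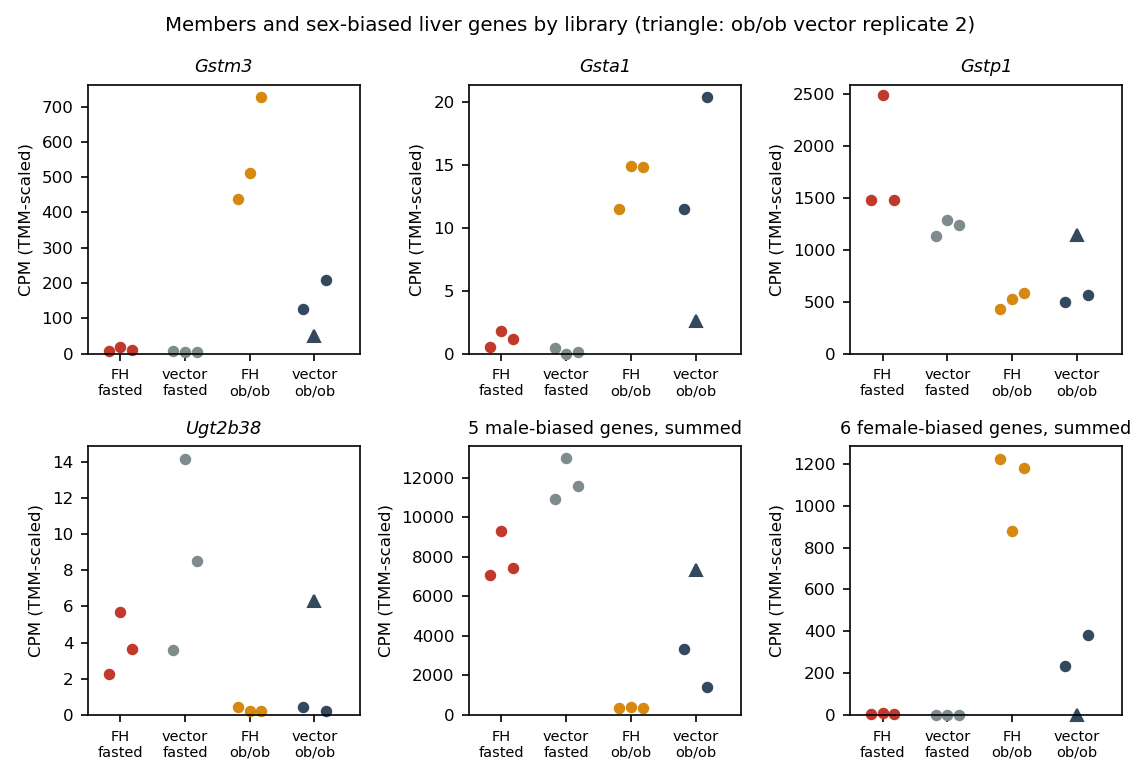
CPM (TMM-scaled, linear axes from 0) of Gstm3, Gsta1, Gstp1 and Ugt2b38 and the summed CPM of 5 male-biased and 6 female-biased liver genes in each of the 12 libraries, by group, with ob/ob vector replicate 2 as a triangle. That library has 50.2 CPM of Gstm3 and 1140.0 CPM of Gstp1, apart from the other 2 of its group.

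UGT messages moved in both directions with FH. In fasted livers 9 of 16 tested UGT genes rose with FH, 2 fell and 5 were not called, and the median log2 fold change was 0.59. In ob/ob livers 5 rose, 2 fell and 9 were not called, with a median of 0.40. The shares called among all tested genes are those given above, 27.4% higher and 27.6% lower in fasted and 25.8% higher and 27.9% lower in ob/ob livers. On library totals 3 rose (Ugt1a1, Ugt1a6b and Ugt3a2) and 3 fell (Ugt1a6a, Ugt2b36 and Ugt2b37) in fasted livers, with a median of -0.08. On the same scaling 4 rose in ob/ob livers (Ugt1a1, Ugt1a5, Ugt1a6b and Ugt3a2) and 6 fell (Ugt1a6a, Ugt2b5, Ugt2b34, Ugt2b35, Ugt2b36 and Ugt2b38), with a median of -0.24. The shares of all tested genes on library totals were again 7.16% higher and 55.7% lower in fasted and 6.83% higher and 53.3% lower in ob/ob livers. Without ob/ob vector replicate 2, 10 of the 16 rose and 3 fell in fasted livers, where Ugt1a10, otherwise too low to test, was also called higher, and 6 rose and 1 fell in ob/ob livers. That omission also gave the most calls over all genes in fasted livers. With all libraries and TMM, Ugt1a1, Ugt1a5, Ugt1a6b, Ugt3a1 and Ugt3a2 rose in both models, and Ugt1a6a fell in both, where 18.9% of all tested genes were called higher and 18.8% lower in both. These rises are 5 of the 9 in fasted and 5 of the 5 in ob/ob livers, and on library totals Ugt1a1, Ugt1a6b and Ugt3a2 rose in both and Ugt1a6a and Ugt2b36 fell in both, where 3.74% of all tested genes rose in both and 43.3% fell in both.

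**Figure D3:**
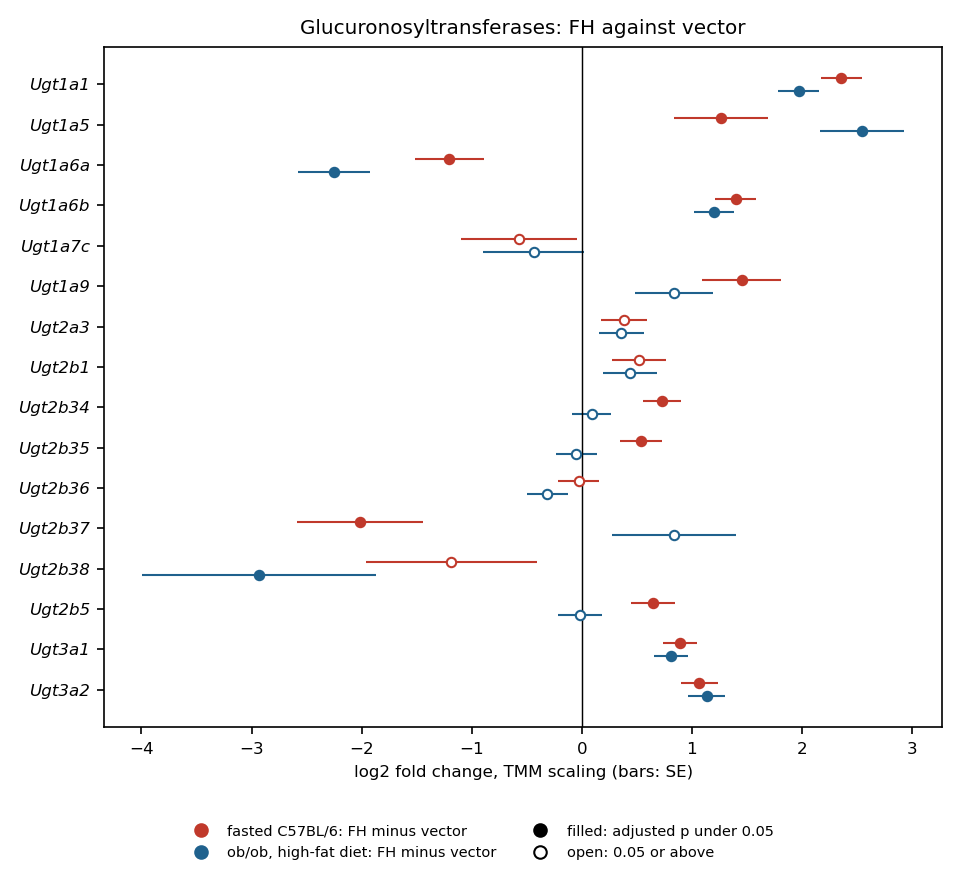
Log2 fold change (FH minus vector, TMM scaling) of the 16 tested glucuronosyltransferases in fasted C57BL/6 livers (red) and ob/ob livers (blue), with SE as bars and filled points for adjusted p under 0.05. Ugt1a1 lies at 2.36 and 1.97, Ugt1a6a at -1.20 and -2.25; on library totals Ugt2b1 and Ugt2b5 lie below 0 in both models.

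The UGT1A genes share 1 locus on chromosome 1. Each of the 9 members has its own first exon, with 849 to 870 coding bases, and all share the last 735 coding bases, which are identical in the 9 (GENCODE M21). The last 60 coding bases of Ugt1a1 are shown, since reads from this shared part can come from any member.
Ugt1a1: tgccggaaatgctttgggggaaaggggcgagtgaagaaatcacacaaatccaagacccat
How the authors' counting treated reads in the shared exons was not given in the sources used here, so single members are uncertain there. Summed over the 9 rows, UGT1A had 219, 295 and 230.4 CPM in fasted FH and 87.7, 104 and 95.8 CPM in fasted vector livers (log2 fold change 1.37, SE 0.22, adjusted p = 0.000178 by edgeR). In ob/ob livers the sum was 343, 283 and 238 CPM with FH and 88.9, 79.3 and 148 CPM with the vector (log2 fold change 1.45, SE 0.22, adjusted p = 0.00012 by edgeR). Neither pair of groups overlapped. Scaled to library totals it rose by 0.70 and 0.82.

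Ugt1a1, the enzyme that glucuronidates bilirubin, rose in both models. It was at 66.6, 62.9 and 71.7 CPM in fasted FH and 13.7, 14.5 and 10.96 CPM in fasted vector livers. This was a 5.13-fold rise with wide separation of the groups (log2 fold change 2.36, SE 0.19, adjusted p = 2.05e-06 by edgeR). Ugt1a1 was at 63.3, 51.9 and 68.7 CPM in ob/ob FH and 13.0, 13.0 and 20.9 CPM in ob/ob vector livers, 3.92-fold higher (log2 fold change 1.97, SE 0.19, adjusted p = 3.36e-06 by edgeR). The 2 effects differed by -0.39 (95% interval -0.89 to 0.12, adjusted p = 0.388). On library totals the rises were 1.69 and 1.35.

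Ugt1a6a and Ugt1a6b, whose rat counterpart glucuronidates planar phenols, went in opposite directions. Their coding sequences are 98.4% identical (1567 of 1593 aligned bases), and 28.2% of the 50-base windows of either stand in no other member. The 60 coding bases where the pair differs most, bases 296 to 355, are shown with the 9 differing bases in capitals, because only such stretches tell the pair apart.
Ugt1a6a: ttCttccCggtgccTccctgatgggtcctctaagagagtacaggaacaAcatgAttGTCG
Ugt1a6b: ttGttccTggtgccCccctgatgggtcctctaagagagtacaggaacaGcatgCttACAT
Ugt1a6b was at 35.8, 42.0 and 32.0 CPM in fasted FH and 11.3, 16.4 and 13.8 CPM in fasted vector livers (log2 fold change 1.40, SE 0.19, adjusted p = 4.51e-05 by edgeR). Ugt1a6a was at 5.09, 7.75 and 10.4 CPM in fasted FH and 21.8, 11.7 and 20.5 CPM in fasted vector livers, 2.30-fold lower with FH (log2 fold change -1.20, SE 0.31, adjusted p = 0.0051 by edgeR). Neither gene's groups overlapped. Among ob/ob livers, Ugt1a6b was at 51.7, 51.5 and 49.9 CPM with FH and 25.7, 15.8 and 25.3 CPM with the vector (log2 fold change 1.20, SE 0.18, adjusted p = 0.000117 by edgeR). Ugt1a6a was at 2.48, 2.86 and 5.68 CPM with FH and 17.1, 19.0 and 16.6 CPM with the vector there, 4.75-fold lower (log2 fold change -2.25, SE 0.33, adjusted p = 8.03e-05 by edgeR). Again all FH values lay on 1 side of all vector values.

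As a share of the pair's counts, Ugt1a6b made up 87.5%, 84.4% and 75.5% in fasted FH libraries and 34.3%, 58.3% and 40.3% in fasted vector libraries. In ob/ob livers the share was 95.4%, 94.7% and 89.8% with FH and 60.03%, 45.3% and 60.3% with the vector. The share does not depend on the scaling, and it was higher in all FH libraries than in all vector libraries. On the TMM scaling the sum of both genes rose, with log2 fold change 0.48, SE 0.12, adjusted p = 0.00525 by edgeR in fasted livers and log2 fold change 0.46, SE 0.12, adjusted p = 0.00652 by edgeR in ob/ob livers. On library totals the sum did not rise (-0.20, adjusted p = 0.227 in fasted and -0.16, adjusted p = 0.319 in ob/ob livers), while the directions of Ugt1a6a (-1.89 and -2.86) and Ugt1a6b (0.73 and 0.58) were the same.

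**Figure D4:**
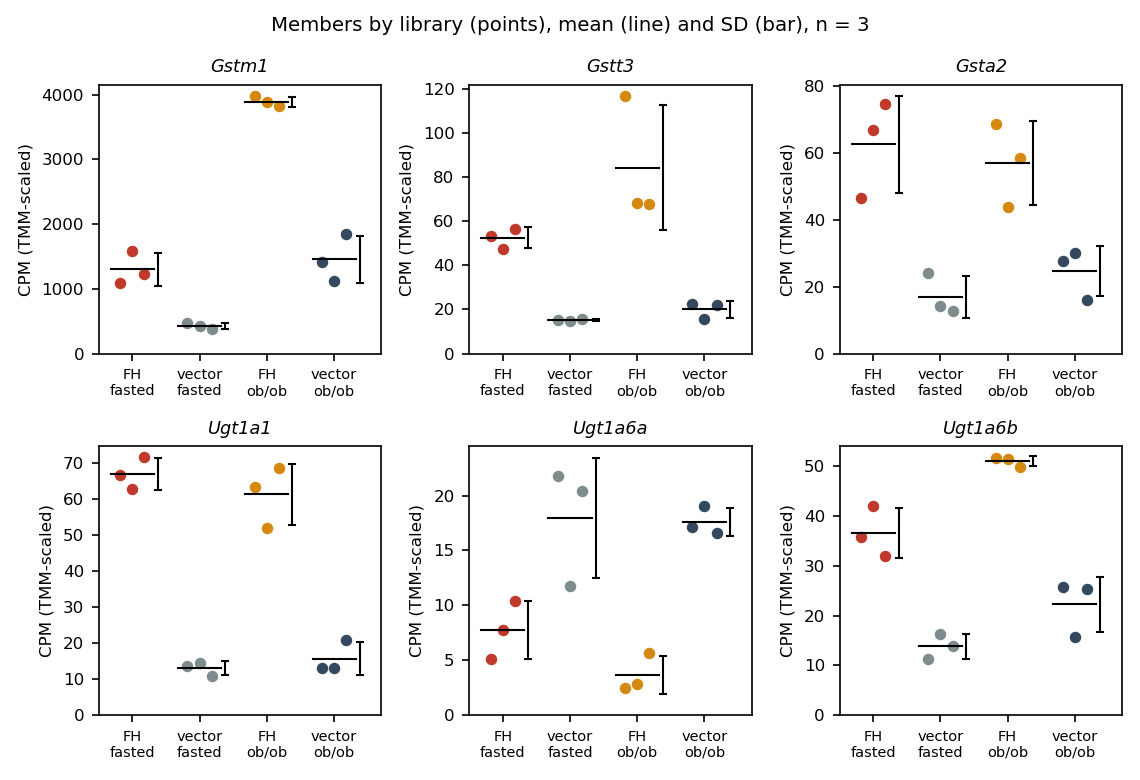
CPM (TMM-scaled, linear axes from 0) of Gstm1, Gstt3, Gsta2, Ugt1a1, Ugt1a6a and Ugt1a6b in each of the 12 libraries (points), by group, with the mean as a line and the SD as a bar (n = 3). In both models the FH libraries lie above the vector libraries for each of these genes except Ugt1a6a, where they lie below.

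Ugt1a5 was low in fasted livers and high in ob/ob FH livers. It had 168, 119.6 and 75.8 CPM in ob/ob FH and 14.3, 12.02 and 35.9 CPM in ob/ob vector livers, 5.84-fold higher with FH (log2 fold change 2.54, SE 0.38, adjusted p = 0.000106 by edgeR). In fasted livers it had 11.7, 6.88 and 8.84 CPM with FH and 4.89, 3.29 and 3.25 CPM with the vector (log2 fold change 1.27, SE 0.43, adjusted p = 0.0227 by edgeR). The groups were apart in both models. On library totals the ob/ob rise was 1.91 and the fasted value was 0.60 with no call. The fasted call was lost without fasted FH replicate 1 or fasted vector replicate 2 or 3 (1.06 to 1.18, adjusted p 0.0685 to 0.0806). The difference of the effects was not called (1.28, adjusted p = 0.178).

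Ugt1a9, which glucuronidates phenols and fatty acids, had 99.7, 174 and 106 CPM in fasted FH and 35.6, 57.4 and 45.5 CPM in fasted vector livers (log2 fold change 1.45, SE 0.36, adjusted p = 0.00373 by edgeR). The ob/ob FH livers had 55.9, 56.3 and 36.4 CPM of Ugt1a9 and the ob/ob vector livers 16.9, 18.1 and 48.1 CPM. Ob/ob vector replicate 3 was within the FH range, and the difference missed the threshold (0.84, adjusted p = 0.062); without that replicate it was 1.52 (adjusted p = 0.000562). On library totals neither model had a call (0.79 and 0.22). Ugt1a7c had at most 1.22 CPM in any library, with no call (-0.57 and -0.44).

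The UGT2B genes on chromosome 5 glucuronidate steroids, bile acids and drugs, and differences in their abundant members were under 2-fold. Ugt2b5 was at 1143, 1781 and 1570.3 CPM in fasted FH and 1142, 891 and 828 CPM in fasted vector livers (log2 fold change 0.65, SE 0.20, adjusted p = 0.0137 by edgeR). The lowest FH value was level with the highest vector value, and the call was lost without fasted FH replicate 2 or fasted vector replicate 3 (0.52 to 0.57, adjusted p 0.0542 to 0.0656). Ugt2b5 was at 1040.2, 704 and 797 CPM in ob/ob FH and 796, 876 and 901 CPM in ob/ob vector livers (-0.02, adjusted p = 0.947). On library totals Ugt2b5 was at -0.02 in fasted livers, and at -0.65 in ob/ob livers with a call.

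Ugt2b36 was at 759.9, 1098 and 1001 CPM in fasted FH and 1193, 807 and 917 CPM in fasted vector livers (-0.03, adjusted p = 0.904). Among ob/ob livers, Ugt2b36 was at 912, 694 and 784 CPM with FH and 1035, 964 and 966 CPM with the vector (-0.31, adjusted p = 0.167). The ob/ob groups did not overlap, yet the difference was not called, and on library totals Ugt2b36 fell in both models (-0.70 and -0.94). Ugt2b1 was at 432, 633 and 525 CPM in fasted FH and 352, 355 and 400.3 CPM in fasted vector livers (0.52, adjusted p = 0.0845). The ob/ob FH livers had 549, 368 and 363 CPM of Ugt2b1 and the ob/ob vector livers 252, 456 and 239 CPM (0.44, adjusted p = 0.147). It was negative on library totals, at -0.15 and -0.20.

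Ugt2b34 rose in fasted livers, with 459, 583 and 498 CPM with FH and 350.1, 290.2 and 289 CPM with the vector (log2 fold change 0.73, SE 0.18, adjusted p = 0.00339 by edgeR). In ob/ob livers its values of 577, 484 and 452 CPM with FH and 469, 370.4 and 581 CPM with the vector overlapped (0.09, adjusted p = 0.687), and on library totals they gave -0.54 with a call. The difference between the models was not called (-0.64, adjusted p = 0.129). Ugt2b35 rose in fasted livers (0.54, adjusted p = 0.0285) and stood at -0.05, adjusted p = 0.849 in ob/ob livers. Its fasted call was lost without any of 6 libraries, fasted FH replicates 2 and 3, fasted vector replicates 2 and 3 and ob/ob FH replicates 1 and 3 (0.39 to 0.50, adjusted p 0.0625 to 0.130). Its values on library totals were -0.14 in fasted livers and -0.67, with a call, in ob/ob livers. Ugt2a3, of the same cluster, had no call (0.38 and 0.36).

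Ugt2b37 and Ugt2b38 were scarce. Ugt2b37 had 6, 7 and 21 counts in the fasted FH libraries and 19, 55 and 57 counts in the smaller fasted vector libraries. That is 0.424, 0.468 and 1.12 CPM against 1.35, 3.29 and 3.79 CPM, and it fell with FH (log2 fold change -2.02, SE 0.57, adjusted p = 0.00891 by edgeR). Ugt2b37 had 2.54, 0.520 and 1.31 CPM in ob/ob FH and 0.812, 1.05 and 0.575 CPM in ob/ob vector livers, which overlapped (0.84, adjusted p = 0.227). Ugt2b38 had 0.466, 0.208 and 0.235 CPM in ob/ob FH and 0.464, 6.30 and 0.209 CPM in ob/ob vector livers. Its call in ob/ob livers (log2 fold change -2.93, SE 1.06, adjusted p = 0.0318 by edgeR) rested on vector replicate 2, without which the value was -0.12 (adjusted p = 0.918), and it was also lost without ob/ob FH replicate 1, 2 or 3 (-3.37, -2.72 and -2.79, adjusted p = 0.0532, 0.0911 and 0.0861). In fasted livers it had 2.26, 5.68 and 3.64 CPM with FH and 3.62, 14.2 and 8.50 CPM with the vector, with no call (-1.19, adjusted p = 0.21). Ugt2b38 shares 97% of its coding bases with the far more abundant Ugt2b5, and Ugt2b37 shares 94.7% with it, which leaves both rows uncertain.

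UGT3A enzymes use sugars other than glucuronic acid. Ugt3a2 rose in both models. It was at 697, 724 and 741 CPM in fasted FH and 327, 397 and 308 CPM in fasted vector livers (log2 fold change 1.07, SE 0.17, adjusted p = 0.000161 by edgeR). Among ob/ob livers, Ugt3a2 was at 649, 562 and 586 CPM with FH and 275, 209.8 and 335 CPM with the vector (log2 fold change 1.13, SE 0.17, adjusted p = 0.000104 by edgeR). The FH libraries were above the vector libraries throughout, and the 2 effects differed by 0.07 (95% interval -0.40 to 0.53, adjusted p = 0.901). On library totals the rises were 0.40 and 0.51. Ugt3a1, which is 93.2% identical in coding sequence, rose by 0.89 and 0.81.

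Whether the FH effect differed between the models was tested as the ob/ob effect minus the fasted effect. Of the GST genes 0 were called by edgeR, where 4.77% of all tested genes were called higher and 3.65% lower. An unadjusted p under 0.05 was reached by 6 of the 22 GST genes, by 6 of the 16 UGT genes and by 24.9% of all tested genes. DESeq2 called 3 GST genes, and 11.8% of the genes to which it gave an adjusted p. Scaled to library totals, 0 GST genes and 1 UGT gene were called by edgeR, where 4.74% of all tested genes were called higher and 2.37% lower. Of the UGT genes 1 was called higher, Ugt2b37 (log2 fold change 2.85, SE 0.80, adjusted p = 0.0445 by edgeR), and 0 lower. The call was lost without any of 8 single libraries (2.25 to 2.96, adjusted p 0.0754 to 0.111), which were fasted FH replicates 1 and 2, fasted vector replicates 2 and 3, ob/ob FH replicates 1 and 3 and ob/ob vector replicates 1 and 3. The GST genes nearest to the threshold were Gstt2 (-1.0, 95% interval -1.59 to -0.41) and Gsta4 (-1.01, interval -1.62 to -0.41). Without ob/ob vector replicate 2, 3 GST genes and 2 UGT genes were called, and that omission also gave the most calls over all genes.

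Leaving out 1 library gave a call to several members that had none with all 12. Without ob/ob vector replicate 2, Gstm7 (0.36), Gstp1 (0.59), Mgst3 (0.80) and Ugt2b1 (0.54) were called higher and Ugt2b38 (-1.17) lower in fasted livers. The same omission called Ugt2b1 higher in ob/ob livers (0.81), and it called Gstt2 (-1.22), Gsta1 (-2.90), Gstm7 (0.88) and Ugt2b34 (-0.79) in the difference. Gstm3 was called higher in fasted livers without fasted FH replicate 1 or ob/ob vector replicate 2 or 3 (1.16 to 1.46), and Gstm5 without fasted FH replicate 1, fasted vector replicate 1 or ob/ob vector replicate 2 (0.82 to 1.22). Gstp3 was called there without fasted vector replicate 1 (0.62) and Gstp2 without fasted FH replicate 2 (-0.66). In ob/ob livers Gstz1 was called without ob/ob vector replicate 1 (0.45) and Gsta3 without fasted vector replicate 2 (0.44). In the difference, Gsta4 was called without fasted FH replicate 1, ob/ob FH replicate 1 or ob/ob vector replicate 3 (-1.20 to -1.15), Gstm2 (1.28) and Ugt1a5 (1.94) without ob/ob vector replicate 3, and Gstt2 without fasted vector replicate 1 (-1.15).

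The vector groups alone compare ob/ob mice on the HFD with fasted C57BL/6 mice, in which strain, diet and fasting differ together and cannot be told apart. These libraries are also the controls of the FH comparisons. Of 22 GST genes 12 were higher in ob/ob livers and 2 lower (15 and 2 on library totals), where 9.36% of all tested genes were called higher and 8.18% lower (17.9% and 4.21% on library totals). The GST median was 0.90 (1.11 on library totals). Of 16 UGT genes 3 were higher and 1 lower (3 and 0 on library totals), with a median of -0.02 (0.19 on library totals). Without ob/ob vector replicate 2 there were 13 higher and 3 lower GST genes and 3 higher and 3 lower UGT genes. Calls over all genes between the vector groups were also most numerous with that omission.

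The 3 largest called GST differences were in members that varied among the ob/ob vector libraries. Gsta1 had 11.5, 2.57 and 20.3 CPM in ob/ob vector and 0.425, 0 and 0.133 CPM in fasted vector livers (log2 fold change 5.97, SE 0.85, adjusted p = 0.000482 by edgeR). The fasted libraries held 6, 0 and 2 counts, and the value was 5.26 to 7.36 with 1 library left out. Gstm3 had 126, 50.2 and 209 CPM in ob/ob vector and 6.31, 4.07 and 4.85 CPM in fasted vector livers (log2 fold change 4.66, SE 0.51, adjusted p = 7.3e-05 by edgeR). Mgst3, a microsomal peroxidase, had 47.8, 13.3 and 71.3 CPM in ob/ob vector and 11.6, 4.01 and 7.97 CPM in fasted vector livers (log2 fold change 2.50, SE 0.47, adjusted p = 0.00292 by edgeR). The groups did not overlap for any of the 3 genes, and in each the lowest ob/ob value was that of replicate 2.

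Calls of Gstm4 and Ugt2b34 in this comparison were lost without fasted vector replicate 2 or 3 or ob/ob vector replicate 3, that of Ugt2b34 also without ob/ob vector replicate 1, and that of Gstm5 without any of 8 libraries (0.87 to 1.08).

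Gstm1 was higher in ob/ob vector livers too (1.79), while Gsto1 (-0.71) and Gstt2 (-0.998) were lower. Among UGTs, Ugt1a5 had 14.3, 12.02 and 35.9 CPM in ob/ob vector and 4.89, 3.29 and 3.25 CPM in fasted vector livers (log2 fold change 2.45, SE 0.42, adjusted p = 0.00171 by edgeR), and 1.79 without ob/ob vector replicate 3. Ugt1a6b had 25.7, 15.8 and 25.3 CPM in ob/ob vector and 11.3, 16.4 and 13.8 CPM in fasted vector livers (log2 fold change 0.68, SE 0.19, adjusted p = 0.024 by edgeR). Its groups overlapped, and its call was lost without fasted vector replicate 1 or 3 or ob/ob vector replicate 1 or 3 (0.56 to 0.68, adjusted p 0.0731 to 0.0947). Ugt2b37 had 0.812, 1.05 and 0.575 CPM in ob/ob vector and 1.35, 3.29 and 3.79 CPM in fasted vector livers (log2 fold change -1.79, SE 0.56, adjusted p = 0.0411 by edgeR), a call lost without any of 6 libraries (fasted FH replicate 2, fasted vector replicates 2 and 3, ob/ob FH replicate 3 and ob/ob vector replicates 1 and 3), with -1.78 to -1.52 and adjusted p of 0.0509 to 0.141.

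Genes that act around both families were counted by list, with no test of a list. Each list below stands beside the shares of all tested genes. These were 27.4% higher and 27.6% lower in fasted livers, and 25.8% higher and 27.9% lower in ob/ob livers. On library totals they were 7.16% higher and 55.7% lower in fasted livers, and 6.83% higher and 53.3% lower in ob/ob livers. Of 13 tested genes that make, recycle or spend glutathione, 7 rose with FH in fasted livers and 1 fell, against 4 and 1 in ob/ob livers (3 and 5, and 2 and 4, on library totals). Gpx1, a peroxidase that uses glutathione, rose by 2.43 and 1.69, and Gsr, which regenerates glutathione, by 0.99 and 0.36. The synthesis genes Gss (1.04) and Gclm (0.54) rose in fasted livers, and Cbs, which feeds cysteine supply, rose by 0.85 and 1.68. The catalytic synthesis subunit Gclc was not called in either model (0.50 and -0.03).

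Of 6 genes of UDP-glucuronate supply and removal, 4 rose in fasted and 5 in ob/ob livers and 0 fell, but on library totals 1 rose and 2 fell in fasted livers and 0 changed in ob/ob livers. Ugdh, which makes UDP-glucuronate, rose by 1.09 and 0.75. The transporter gene Slc35d1 rose by 1.37 and 0.84, and Gusb, which cleaves glucuronides, by 1.10 and 1.03. Among 7 export genes 2 rose and 1 fell in fasted livers and 4 rose and 0 fell in ob/ob livers (2 and 3 in each model on library totals). Abcc3, which exports conjugates to blood, rose by 1.83 and 1.31, and Abcg2 by 1.03 and 0.43.

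Of 13 regulators 7 rose and 1 fell in fasted livers, and 3 rose and 3 fell in ob/ob livers (3 and 3, and 1 and 7, on library totals). Rxra (1.64 and 1.04), Keap1 (0.97 and 0.89) and Hnf4a (0.66 and 0.77) rose in both with TMM scaling. Mafg, a small MAF partner of NRF2, fell in both (-0.60 and -0.87). Bach1, which competes with NRF2 for its sites, rose in fasted livers (0.55) and fell in ob/ob livers (-0.52), and the effects differed (-1.07, edgeR adjusted p = 0.00733). Nfe2l2, the gene of NRF2, was not called (0.30 and -0.18). Nr1i3, the gene of CAR, fell in ob/ob livers (-0.47) and was not called in fasted livers (0.28). Of 17 other conjugating enzymes 4 rose and 2 fell in fasted livers and 4 rose and 5 fell in ob/ob livers (0 and 6, and 2 and 8, on library totals), with the sulfotransferase gene Sult1d1 lower in both (-0.99 and -0.89).

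Since 10 GST members rose in both models (3 on library totals), GST and UGT promoters were searched for TGACNNNGC, the core of the antioxidant response element to which NRF2 binds, on both strands of the RefSeq windows (250 bases before to 50 after each start, GRCm38.p6). It stood in 4 of the 32 windows of 23 matched GST genes (12.5%) and in 0 of the 19 windows of 19 matched UGT genes, against 4071 of all 32851 windows (12.4%). The 4 genes were Gsta3, Gstm5, Gstm7 and Mgst1, none of which is among the 10 that rose in both models. With TMM scaling Gsta3 rose in fasted livers only, Gstm5 and Gstm7 rose in ob/ob livers only, and Mgst1 was called in neither model. The match of Gsta3 is shown as an example with the motif in capitals, at chr1:21240449-21240487 on the plus strand, 121 to 113 bases before the start.
Gsta3: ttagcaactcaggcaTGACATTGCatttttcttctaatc
A match is a description of the letters in the window, and the absence of a match says nothing about a factor.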

How the data were processed

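RNA of 12 mouse liver libraries was measured. The authors' deposited table holds raw counts per gene and was used as given, with samples taken from its column names. Per the labels' protocols, total RNA was extracted with TRIzol and made into libraries with the Illumina Stranded mRNA Prep. The submitters' processing notes name STAR 2.7.11a and the build GRCm39. What counted the reads, on which annotation and with what use of strand, was not given in the sources used here. Depth ran from 12231828 to 25873379 counts.

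The test was edgeR's quasi-likelihood F test (edgeR 4.0.16 under R 4.3.3) with TMM factors and filterByExpr at 10 counts and 15 in total. A single fit held the 12 libraries as 4 groups, leaving 8 residual degrees of freedom. Adjusted p is Benjamini-Hochberg over 15228 genes, called under 0.05. Log2 fold changes are FH minus vector, their difference (ob/ob minus fasted), and ob/ob minus fasted vector libraries. The steps were tested on simulated data. Other settings were library totals, RLE factors, DESeq2 1.42.0, no filter, 6 libraries, a replicate block, 1 library left out, a 2-fold minimum, and summed copies. Values in every library were given for members chosen by rule: per family, the 5 highest in mean CPM, the 5 largest called changes per FH comparison (mean of at least 1 CPM), the 4 smallest p called in the difference and the 3 largest called between the vector groups (at least 1 CPM). Other members were named after their values were seen.

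Symbols of 46 of the 47 members matched GENCODE M21 (GRCm38), which gave spellings, exon lengths and coding sequences, 1 transcript with the longest coding sequence per gene. Promoter windows were RefSeq's (GRCm38.p6). Members and lists were chosen with earlier results of these data known. One listed gene each of the regulators and of the female-biased genes is not reported here.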

Additional observations from a re-analysis of the deposited data

Results flagged for a closer look

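The FH effect on Ugt2b37 differed between the models by a test of the difference itself: the ob/ob effect minus the fasted effect was 2.85 (SE 0.80, edgeR adjusted p = 0.0445). The call was lost with the replicate block (adjusted p = 0.0673) and without any of 8 single libraries (2.25 to 2.96, adjusted p 0.0754 to 0.111). The FH effect was 0.84 in ob/ob livers and -2.02 in fasted livers. All 12 libraries held few reads of it, with 49, 10 and 28 counts in ob/ob FH, 14, 20 and 11 in ob/ob vector, 6, 7 and 21 in fasted FH and 19, 55 and 57 in fasted vector libraries. The sex markers of the ob/ob FH libraries move with the ob/ob effect, and their part was not tested.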

How the results depend on the processing

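On library totals the calls were 8 GST (from 13 with TMM) and 6 UGT genes (from 11) in fasted livers and 9 GST (from 14) and 10 UGT genes (from 7) in ob/ob livers, and 17 GST (from 14) and 3 UGT genes (from 4) between the vector groups. Among members named by rule, in the comparisons that named them, values turned negative there for Mgst1 (-0.44 fasted, -0.31 ob/ob), Gsta3 (-0.14, -0.20), Gstz1 (-0.53, -0.30), Ugt2b1 (-0.15, -0.20), and, in fasted livers, Gstp1 (-0.10) and Ugt2b5 (-0.02), and in ob/ob livers Ugt2b34 (-0.54). Other members turned negative too. Among them were Gsto1 in ob/ob livers (-0.10) and Gstt2 (-0.06) and Ugt2b35 (-0.14) in fasted livers, each called higher with TMM. Of 543 settings of single named members, 469 kept direction and call, 42 lost the call, 13 gained it and 19 changed sign, 11 of them on library totals; with RLE factors each of 45 kept both. The other sign changes came with 1 library left out, in values near 0: Ugt2b36 in fasted livers ran from -0.13 to 0.12, and in ob/ob livers Ugt2b34 ran from -0.04 to 0.28 and Ugt2b5 from -0.21 to 0.11. For the difference, DESeq2 called 3 GST genes and 11.8% of the genes to which it gave an adjusted p. No filter called 7 GST and 4 UGT genes for it, and the share over all genes in that setting is not given here. With only the 6 vector libraries the vector comparison called 1244 genes in all and 2 UGT genes. A 2-fold minimum left 4354 of 8381 calls over all genes and 7 UGT genes in fasted livers, 4095 of 8177 and 9 GST genes in ob/ob livers, 852 of 1282 for the difference, and 1177 of 2671 and 2 UGT genes between the vector groups. Summing near-identical rows and the UGT1A rows gave 7 UGT calls in fasted livers, 4 in ob/ob livers and 2 between the vector groups. Replicate numbers did not pair the libraries (r of deviations -0.15 to 0.16 over 18 pairs, 4 over 0.1); with the replicate block the difference had 1 GST and 0 UGT calls, 12 GST and 11 UGT genes were called in fasted and 14 and 7 in ob/ob livers. With 1 library left out, calls over all genes were 7215 to 9235 (fasted), 7007 to 8613 (ob/ob), 582 to 1651 (difference) and 1669 to 3412 (vector groups). GST calls, members too low to test with all 12 libraries included, were then 9 to 19, 11 to 15, 0 to 3 and 12 to 16, and UGT calls 9 to 14, 6 to 9, 0 to 2 and 1 to 6. Leaving out ob/ob vector replicate 2 gave the highest of these counts for all genes in fasted livers, the difference and the vector groups. That replicate is in neither fasted group, and the single fit takes its spread from all 12 libraries. The cause was not tested. Low counts limit Ugt2b37 (6 to 57 per library) and, in fasted livers, Gsta1 (0 to 27).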
